A study of Mus musculus with 15 samples.

Results

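Cathepsins are proteases that digest proteins mainly inside lysosomes, and the data on 10 of their genes are described here in mouse embryonic fibroblasts. Transcription units were taken as members where their listed gene symbols included Ctsa, Ctsb, Ctsc, Ctsd, Ctsf, Ctsh, Ctsk, Ctsl, Ctss or Ctsz. These 10 genes had 17 units among the 65522 units measured. Most cathepsins are made as inactive precursors, are carried to the lysosome by mannose 6-phosphate receptors and become active in its acid interior, where proton pumps of the v-ATPase type keep the pH low. Fibroblasts use them to break down endocytosed proteins and collagen, and macrophages use an overlapping set, in which cathepsin S serves antigen presentation.

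RNA of 15 cell populations from female C57BL/6 embryos was enriched for poly(A) transcripts and sequenced. Primary populations (before passage 5) were compared with culture-adapted lines derived from such cells, in wild-type (WT) cells and in cells that lack CIZ1, a nuclear matrix protein, through a gene trap in both alleles. There were 3 primary WT populations (S01 to S03), 2 primary CIZ1 null populations (S04 and S05), 3 adapted WT lines (S07 to S09) and 3 adapted CIZ1 null lines (S10 to S12). A further 4 primary CIZ1 null populations carried an inducible CIZ1 transgene fused to GFP, and of these S06 and S13 were untreated while S14 and S15 received doxycycline at 5 to 10 µg per ml. The transgene is thus present, uninduced, in S06, which was grouped with S04 and S05 as the primary CIZ1 null set, as the study did. Adapted line S11 comes from the same embryo as S06, and the paper lists that line too as carrying the transgene. The adapted CIZ1 null group is therefore also mixed in this respect. Primary and adapted samples come from the same few embryos, so an adapted line is a derivative of 1 embryo and not a separate animal. The 4 transgenic primary populations share embryos among themselves. The p-values below measure the spread between these populations.

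Levels are given as FPKM, fragments per kilobase of transcript scaled to the mapped fragments of the library, and being per length they can be set side by side between genes. A change is the difference of mean log2(FPKM + 1), tested with limma over all units whose FPKM averaged 1 or more in the samples compared, and was called where the p adjusted by the Benjamini-Hochberg method was under 0.05. The added 1 makes changes of low genes look smaller than they are. Ciz1 itself was at 18.7 to 25.0 FPKM in the 6 WT samples, at 0.0546 to 0.724 in the 7 untreated null ones, and at 296 and 191 in S14 and S15, as labelled. Correlation between samples of a group, over the 20031 units averaging 1 FPKM or more, was 0.913 to 0.974 in primary cells, transgenic ones included, and 0.829 to 0.888 in adapted lines, so the adapted lines differed more from each other. The depth of the libraries, estimated from the spacing of low values, was 0.483 to 1.64 times that of S01. The 15 fibroblast markers summed to 7923 to 12890 FPKM in primary samples and to 3367 to 7522 in adapted lines, and the 6 epithelial markers summed to at most 12.7.

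The family held genes at 5 FPKM or more in every population and a pair of genes that were lower in adapted lines. Ctsa, Ctsb, Ctsd, Ctsf, Ctsh, Ctsk, Ctsl and Ctsz, 8 of the 10 members, stood at 5.81 FPKM or higher in all 15 samples. In the 6 adapted lines Tyrobp and C1qa, an adaptor of macrophage receptors and a chain of complement C1q, were listed at 0. Some other macrophage markers were not, with Csf1r at 0.783 to 2.88 FPKM and Cd14 at 1.40 to 8.81. The 8 members stood at 5.81 FPKM or higher there too. Ctsc and Ctss were the exceptions: Ctsc was at 0.0701 to 2.65 FPKM in adapted lines and at 2.66 to 18.1 in the 9 primary samples, and Ctss at 0 to 0.408 against 1.09 to 16.3. For neither gene did the adapted lines overlap with the primary samples, although for Ctsc the closest values, 2.65 in S10 and 2.66 in S14, nearly met and only S11 and S12 were below 1 FPKM.

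**Figure D1:**
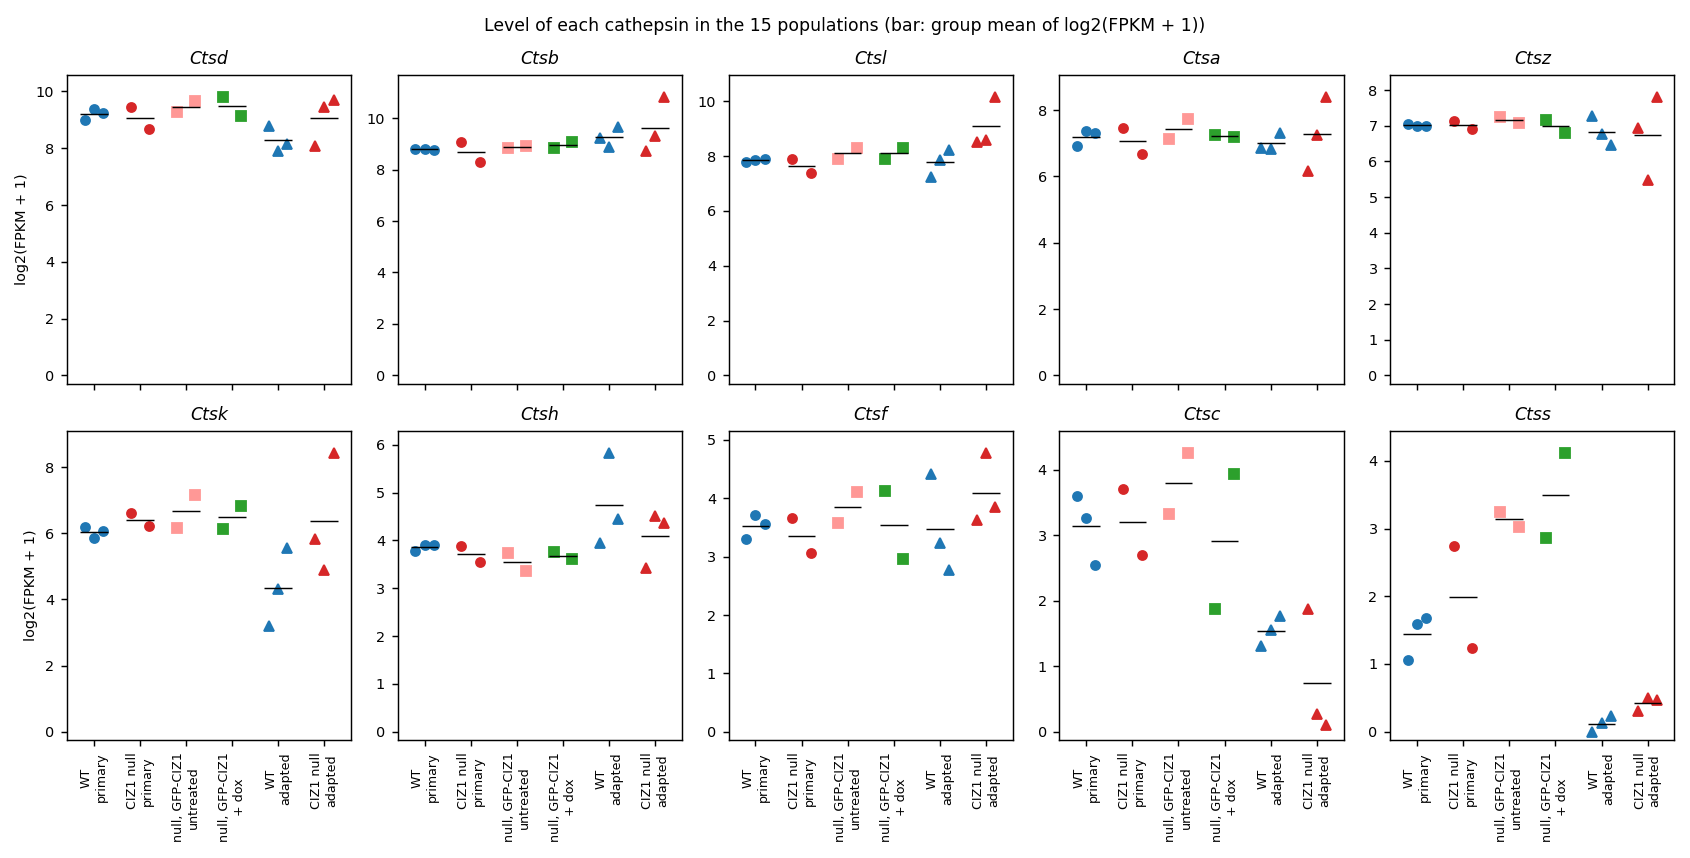
log2(FPKM + 1) of each cathepsin (vertical axis, one panel per gene in order of median FPKM) in the 6 groups of populations (horizontal axis); each point is 1 population and each bar a group mean. Ctsc and Ctss are lower in adapted lines (triangles) than in all primary populations, and S12, the highest adapted CIZ1 null line, has the top value of 15 for Ctsa, Ctsb, Ctsk, Ctsl and Ctsz.

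Ctsd, Ctsb and Ctsl made up 73.5 to 86.3% of the summed FPKM of the 10 genes. Over the 15 samples the medians ran from 606 FPKM for Ctsd, the main aspartic protease of lysosomes, through 473 for Ctsb, 239 for Ctsl, 150 for Ctsa, 126 for Ctsz and 69.1 for Ctsk to 13.7 for Ctsh, 11.4 for Ctsf, 4.86 for Ctsc and 1.36 for Ctss. The ranges of every pair of neighbours in this order overlapped. Within samples the order was firmer at some places: Ctsb was above Ctsl, and Ctsl above Ctsa, in 15 of 15 samples, whereas Ctsd was above Ctsb in 10 of 15 and Ctsh above Ctsf in 10 of 15. Of the 13 other cathepsins listed, only Ctso and Ctsw reached 1 FPKM in any sample. The inhibitors Cst3 (245 to 960 FPKM) and Cstb (176 to 620 FPKM) lay within the range of Ctsl (150 to 1145 FPKM).

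Ctsd, which starts many proteolytic cascades in the lysosome, was at 515, 667 and 606 FPKM in the primary WT samples and at 443, 238 and 283 in the adapted WT lines. In CIZ1 null cells it was at 695, 406 and 612 before adaptation and at 270, 696 and 830 after it. The WT groups did not overlap while the null groups did. Its unit (chr7:142325837-142388038, minus strand, GRCm38) is listed together with Ifitm10, so part of its value may belong to that neighbour.

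Ctsb, a cysteine protease that acts both inside chains and as a dipeptidase at their end, was the most even member in primary WT cells, at 439, 444 and 437 FPKM. Adapted WT lines were all higher, at 593, 473 and 796, and adapted CIZ1 null lines were at 425, 631 and 1814. The primary CIZ1 null set was at 540, 313 and 460, overlapping the WT samples. Ctsb lies at chr14:63122462-63178095, plus strand.

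Ctsl, a cysteine endopeptidase secreted by growing fibroblasts as a precursor, was at 222, 232 and 239 FPKM in primary WT samples and at 150, 230 and 295 in adapted WT lines. In the primary CIZ1 null set it was at 237, 167 and 239, and in the adapted CIZ1 null lines at 360, 387 and 1145. All 3 adapted null lines were above every primary and every adapted WT sample, the highest of which were S13 and S15 at 314 and 315. Ctsl lies at chr13:64362001-64370306, minus strand.

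Ctsa, a carboxypeptidase that also shields neuraminidase and beta-galactosidase from degradation, was at 121 to 164 FPKM in primary WT samples and at 113 to 159 in adapted WT lines. Adapted CIZ1 null lines spread from 70.6 in S10 and 152 in S11 to 337 in S12. Ctsz, a carboxypeptidase that removes single residues, stayed between 111 and 151 FPKM in the 9 primary samples and ranged from 43.4 in S11 to 224 in S12 in adapted lines. Both groups of adapted null values therefore enclosed the whole primary range. The deposited locus of Ctsz also holds Nelfcd, that of Ctsa holds Neurl2 and Pltp, and that of Ctsb holds Fdft1, so reads of overlapping ends may be shared.

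Ctsk, the collagen-degrading protease best known from osteoclasts and also made by fibroblasts, was at 72.4, 57.6 and 66.0 FPKM in primary WT samples. Adapted WT lines were all lower, at 8.12, 19.1 and 45.9. The primary CIZ1 null set was at 96.7, 73.1 and 71.1, and the adapted null lines at 55.6, 28.95 and 343. Adapted null lines S10 and S11 thus lay below every primary sample, and S12 above every one. The 6 osteoclast markers summed to 20.9 FPKM in S12, to 11.99 in S10 and to 0.237 in S11, with Ocstamp, Dcstamp and Calcr at 0 in S12. Nearly all of the sums in S12 and S10 was Mmp9, at 20.5 and 11.5 FPKM, while Acp5 was at 0.137 in S12. Primary WT sample S01 had a similar sum, 20.35. Ctsk and Ctss are neighbours on chromosome 3 (chr3:95499256-95509387 and chr3:95526786-95556403, both plus strand).

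Ctsh, an aminopeptidase, was at 9.31 to 14.01 FPKM in the 9 primary samples and at 9.66 to 55.8 in adapted lines, with S08 highest. Ctsf, a cysteine endopeptidase, was at 6.74 to 16.4 FPKM in primary samples and at 5.81 to 26.4 in adapted lines. The Ctsf value is less certain than the others, since a second unit at the same place, assigned to the opposite strand, held 34.9 to 58.6% of the pair. The library kit does not mark the strand, and such second units also exist for Ctsc, Ctsd, Ctsh, Ctsk, Ctsl and Ctss.

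Ctsc, which activates the granule proteases of immune cells, was at 11.1, 8.63 and 4.86 FPKM in primary WT samples and at 1.47, 1.94 and 2.42 in adapted WT lines. The primary CIZ1 null set was at 12.03, 5.49 and 9.06, and the adapted null lines at 2.65, 0.212 and 0.0701. In both genotypes the adapted lines lay below the primary samples without overlap. Ctsc lies at chr7:88278085-88315864, plus strand.

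Ctss, which trims the invariant chain in antigen-presenting cells, was at 1.09, 2.02 and 2.21 FPKM in primary WT samples and at 0, 0.0923 and 0.176 in adapted WT lines. The primary CIZ1 null set was at 5.73, 1.36 and 8.48, and the adapted null lines at 0.233, 0.408 and 0.387. Transgenic samples S13, S14 and S15 were at 7.17, 6.29 and 16.3. Its unit on the opposite strand was uneven, with 0 to 70.8% of the pair, and the sum of both was 3.47, 2.34 and 2.57 in primary WT samples and 9.21, 4.64 and 9.18 in the primary null set. With the sum, but not with the single unit, the primary null samples lay above the WT ones.

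The levels of Ctss were set beside macrophage markers. Lyz2, which encodes the lysozyme of macrophages, was at 12.1, 20.7 and 11.8 FPKM in primary WT samples, at 50.7, 5.58 and 71.9 in the primary CIZ1 null set, at 55.9, 49.2 and 65.5 in S13, S14 and S15, and at 0.363 to 13.2 in adapted lines. The 20 macrophage markers together summed to 15.4 to 149 FPKM in primary samples and to 4.07 to 22.8 in adapted ones. Single markers of the list differed in this. Cd14 went the other way, at 1.40 to 8.81 FPKM in adapted lines and at 0.571 to 2.10 in primary samples. Csf1r overlapped, at 0.783 to 2.88 in adapted lines and at 1.91 to 6.29 in primary samples. Of the 6 defining markers none was at 0 in any primary sample, while 2 or 3 of them, always including Tyrobp and C1qa, were at 0 in each adapted line. In bulk RNA, fewer cells of a type and less RNA per cell cannot be told apart.

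Within the 9 primary samples, Ctss rose with Lyz2 on the log2 scale, with Pearson's r 0.911 (exact permutation p = 0.000907, 0.0143 after Benjamini-Hochberg adjustment over 20 relations) and Spearman's rho 0.883 (exact permutation p = 0.00308, adjusted 0.0308). Without S03 and S05, the samples farthest from the median of Lyz2, r was 0.941 (exact permutation p = 0.00258, adjusted 0.0516). Against the sum of the other macrophage markers r was 0.839 (adjusted exact permutation p = 0.0457). With the units of both strands summed r was 0.745 and the adjusted exact permutation p 0.0928, so the relation no longer passed the threshold. The 5 samples with the highest Lyz2 were S04 and the 4 transgenic primary populations. The 9 samples come from no more than 7 embryos, and the 5 primary samples without transgene are too few for a value of their own.

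Ctsb and Ctsl also rose with Lyz2 in primary samples, with r 0.816 and 0.757 (adjusted exact permutation p 0.0143 and 0.0425), over ranges of 313 to 540 and 167 to 315 FPKM. These relations weakened without S03 and S05, the 2 primary samples lowest in Lyz2: r was 0.609 and 0.567 (exact permutation p = 0.107 and 0.0768). S05 was also the lowest primary sample for both genes, at 313 FPKM of Ctsb and 167 of Ctsl. In adapted lines, where the marker sums were low, Ctsb was at 425 to 1814 FPKM and Ctsl at 150 to 1145. The lowest Ctsl value of all 15 samples was in S07, the line with the lowest marker sum (4.07). The other 7 members had r between -0.163 for Ctsh and 0.676 for Ctsd in primary samples, none past the threshold after adjustment.

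Within the 6 adapted lines Ctsk was the only member past the threshold against Lyz2 by Pearson's r. Its r was 0.946 (exact permutation p = 0.00417, adjusted 0.0278) and its rho 0.943 (exact permutation p = 0.0167, adjusted 0.111). Without S09 and S12 r was 0.981 (exact permutation p = 0.0833). With any single line left out r was 0.878 to 0.994 (exact permutation p adjusted over the 10 relations of the adapted lines 0.0833 to 0.583). So few lines allow few orders, which limits the p, and the loss of the call says nothing about stability. Against the sum of the other macrophage markers r was 0.453 (adjusted exact permutation p = 0.496). Ctsl and Ctsb also had high r with Lyz2 in these lines, 0.854 and 0.780 (exact permutation p = 0.0264 and 0.0611, adjusted 0.106 and 0.175). Line S12 was the highest adapted line in Lyz2 and in Ctsk, Ctsl and Ctsb. Ctss, at 0.408 FPKM or less, had r 0.605 (exact permutation p = 0.203) in these lines, where its low level leaves little to compare.

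**Figure D2:**
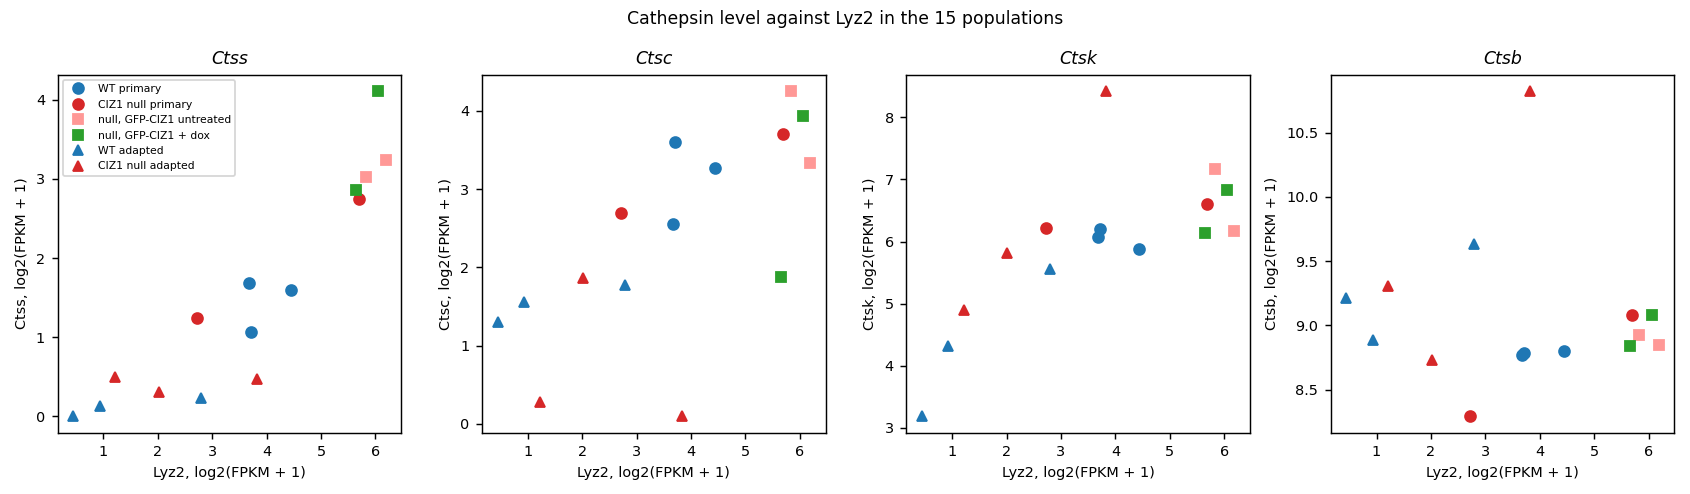
log2(FPKM + 1) of Ctss, Ctsc, Ctsk and Ctsb (vertical axes) against Lyz2 (horizontal axes) in the 15 populations; circles are primary, squares transgenic primary and triangles adapted populations. Ctss climbs with Lyz2 from 0 FPKM in S07 to 16.3 in S15, while Ctsb is highest, at 1814 FPKM, in the adapted line S12.

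For each member the 3 genes with the most similar profile over the 15 samples were sought among 19522 named units by Pearson's r, given as a description. Those of Ctss were Lyz2 (its second unit, 0.952), C1qb (0.951) and Tyrobp (0.950), all of them macrophage markers. No macrophage marker was among the 3 nearest of the other 9 members. For Ctsa they were Dpp7 (0.872), a lysosomal peptidase, and both units of Lamp1 (0.861 and 0.859), an abundant protein of the lysosomal membrane. Hexa, a lysosomal hexosaminidase, was the second for Ctsd (0.891), and Creg1 the second for Ctsl (0.916). The nearest genes were Rhbdf2 for Ctsb (0.909), Epha3 for Ctsc (0.906), Rpl22 for Ctsf (0.879), Wwp2 for Ctsh (0.967), Gosr2 for Ctsk (0.936) and, with a shared locus, Nelfcd for Ctsz (0.979). The primary and adapted samples form separate groups, which weighs on each of these values.

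The first question was what culture adaptation did to the family. In WT cells 1 of the 9 members tested was called, against a background of 9.55% of the 19919 units tested. Ctsc fell by 1.59 on the log2 scale (SE 0.305, limma, adjusted p = 0.0310). Ctsk and Ctsd had log2 changes of -1.69 (SE 0.556) and -0.93 (SE 0.256), with limma adjusted p of 0.1003 and 0.0672, and the median over the members was -0.17 beside -0.05 over all units. Ctss did not reach the mean of 1 FPKM and was not tested; without that filter its log2 change was -1.33 (SE 0.211, limma adjusted p = 0.0415) and Ctsc was not called (adjusted p = 0.0614). Groups did not overlap for 6 of the 10 members (Ctsb and Ctsh higher, Ctsc, Ctsd, Ctsk and Ctss lower), beside 38.7% of the units tested. With embryo of origin as a block the adjusted p of Ctsc was 0.0553 and no member was called, with 499 instead of 1902 units called in all. Leaving out any one of S01, S02, S03, S07 and S08 also took the call of Ctsc away, with adjusted p of 0.0558 to 0.120.

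In CIZ1 null cells 0 of the 10 members was called in adaptation, against 4.86% of 20044 units, and 3 had an unadjusted p under 0.05, beside 5868 of all units. Ctsc had a log2 change of -2.50 (SE 0.523, limma adjusted p = 0.0504), Ctss of -1.99 (SE 0.510, adjusted p = 0.0695) and Ctsl of 1.36 (SE 0.466, adjusted p = 0.121). The groups did not overlap for these 3 members, beside 37.1% of units, and the median over the members was 0.12 beside -0.04 over all units. With embryo of origin as a block 10 instead of 975 units were called, none of them a member. With all 4 groups in 1 fit these 3 were called, with limma adjusted p of 0.00923, 0.0156 and 0.0472. With both strands summed Ctss was called in both genotypes, at log2 changes of -1.79 in WT (adjusted p = 0.0137) and -2.64 in null cells (adjusted p = 0.0206). Of the 20 macrophage markers 9 were tested in WT adaptation and 5 fell (among them Lyz2, Tyrobp, C1qa and C1qb by 1.81 to 2.55 on the log2 scale). In null cells none of 13 was called, with a median of -1.93. Tyrobp, C1qa and C1qb were at 0 in every adapted WT line. They passed the filter only through their primary values and could only come out as lower, so their fall adds no support. Ctss likewise passed only through its primary values in null cells and, with strands summed, in WT cells. Ctsc did so in null cells, where the adapted lines averaged 0.979 FPKM, so its fall there adds no support either. Of the 15 fibroblast markers none was called in WT cells and 4 fell in null cells (Col5a1, Col1a1, Vim and Col1a2, by 1.16 to 2.59 on the log2 scale). The part of either cell type in the change of Ctsc was not tested.

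The difference in adaptation between genotypes was tested as an interaction. No member was called, nor any other unit (0% of 20046), while 928 units had an unadjusted p under 0.05. Ctsl, the 1 member with an unadjusted p under 0.05, had a log2 change higher in null cells by 1.45 (SE 0.571, limma adjusted p = 0.996). The changes of the members differed by -0.90 (Ctsc) to 1.74 (Ctsk). A difference between genotypes in the adaptation of any cathepsin was thus not shown.

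**Figure D3:**
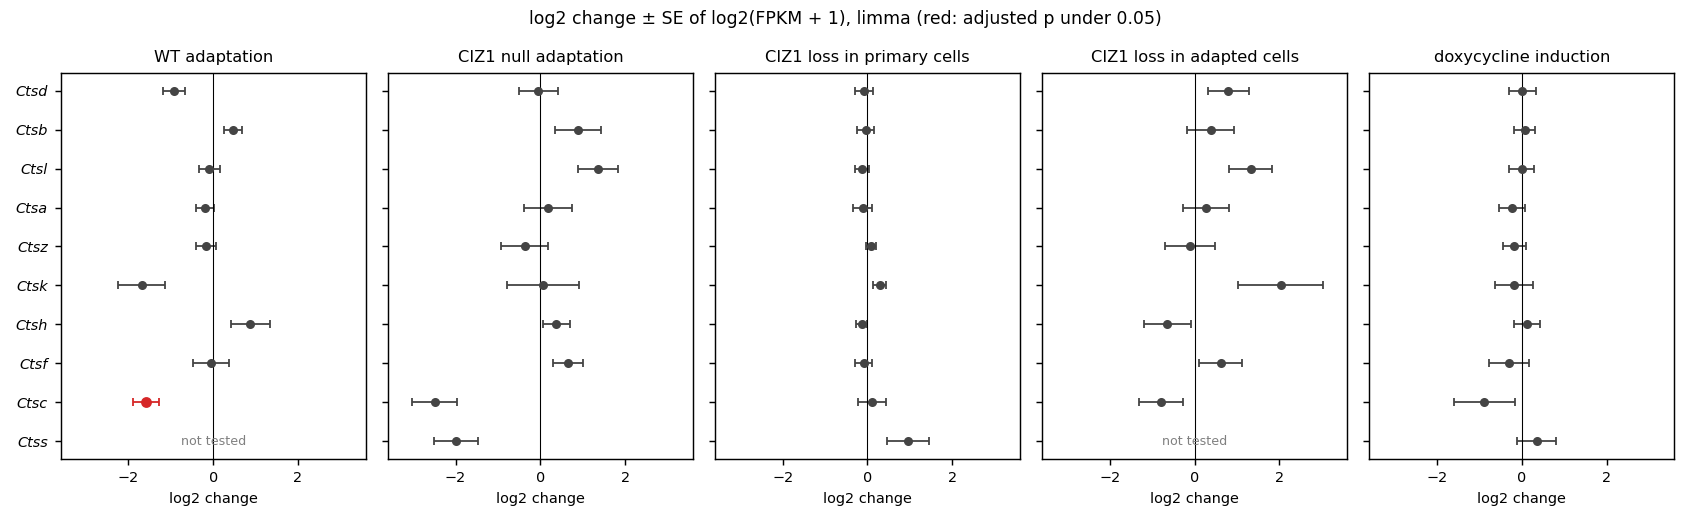
log2 change of log2(FPKM + 1) with its standard error (horizontal axes) for each cathepsin (vertical axis) in 5 comparisons, from limma; red marks an adjusted p under 0.05. Ctsc in WT adaptation, at -1.59 (adjusted p 0.0310), is the one red point, and the widest error bars belong to Ctsk, at 2.03 with CIZ1 loss in adapted lines.

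The second question was whether loss of CIZ1 changed cathepsin levels. In primary cells none of the 10 members was called by limma, against 0.00511% of 19566 units, and 0 members had an unadjusted p under 0.05. Of the members 9 had log2 changes between -0.14 and 0.28, and Ctss stood apart with 0.96 (SE 0.499, limma adjusted p = 0.815), with overlap of the groups for all 10 members (11.9% of units did not overlap). For Ctss with both strands summed the change was 1.15 (SE 0.265), with a limma adjusted p of 0.634. The macrophage markers had a median change of 0.73 here, with S04 and S06 at 143 and 149 summed FPKM and S05, at 15.4, below all WT samples (28.5 to 62.1). Ctss followed the same order within the null set: high in S04 and S06 and low in S05. Their part in its level was not tested.

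In adapted lines 0 of the 9 members tested was called for loss of CIZ1, against 0.00501% of 19976 units, and 1 had an unadjusted p under 0.05. Ctsl was higher in null lines by 1.32 on the log2 scale (SE 0.508, limma adjusted p = 0.998), with no overlap between the groups, and Ctsk by 2.03 (SE 0.997) with overlap. Without S12 these differences were 0.78 and 1.01. For 2 of the 10 members, Ctsl and Ctss, the adapted groups did not overlap, beside 8.28% of all units tested, and Ctss was there at 0.408 FPKM or less.

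Induction of GFP-CIZ1 was the third question. Between S06 and S13 without and S14 and S15 with doxycycline none of the 10 members was called by limma, against 0.0101% of 19768 units, and 0 members had an unadjusted p under 0.05. Log2 changes ranged from -0.89 for Ctsc (SE 0.722) to 0.35 for Ctss (SE 0.466), and became 0.14 for Ctsc without S14 and -0.27 for Ctss without S15. Ctsc was at 9.06 and 18.1 FPKM without and at 2.66 and 14.3 with doxycycline, so the treated samples differed from each other more than the groups did. The 4 populations come from 2 embryos, but the sources used here do not pair treated with untreated samples, so the fit was unpaired, and a smaller spread within embryos would not be seen in it.

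Line S12, an adapted CIZ1 null line, stood apart in the summed level of the family, though not in every member. Its 10 cathepsins summed to 4726 FPKM, against 1204 to 2150 in the 14 other samples. S12 had the highest of the 15 values for 5 members (Ctsa, Ctsb, Ctsk, Ctsl and Ctsz), and over all 20031 units with a mean of at least 1 FPKM it was highest for 12.2%. Against the mean of S10 and S11, Ctsk was 8.11 times higher, Ctsb 3.44, Ctsl 3.07, Ctsa 3.02, Ctsz 2.73 and Ctsd 1.72 times, whereas Ctsc was the lowest of all samples. The median ratio of the 10 members was 2.23, beside 0.963 over all units. These values describe 1 line, chosen after its levels were seen, and they have no test.

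Lysosomal hydrolases, membrane proteins and v-ATPase subunits were also higher in S12, and other lists of the pathway were mixed. Of 33 other lysosomal hydrolases all 33 were above the mean of S10 and S11, with a median ratio of 2.14, and 22 had their highest of 15 values in S12. For lysosomal membrane proteins it was 11 of 12 by either count, and among v-ATPase subunits 16 of 16 were above that mean and 10 were highest. Of 7 genes of cathepsin processing and sorting 4 were above the mean of S10 and S11 (median ratio 1.33), and of 3 inhibitors 1 was (median ratio 0.824). The transcription factors that drive lysosomal genes, Tfeb, Tfe3, Mitf and Tfec, summed to 23.3 FPKM in S12 and to 17.8 to 24.6 elsewhere. Tfe3 made up most of each sum. Mitf alone had its highest of 15 values in S12, at 3.17 FPKM beside at most 2.31 elsewhere, while Tfeb, Tfe3 and Tfec did not. Lyz2 was at 13.2 FPKM in S12 and at 0.363 to 5.93 in the other adapted lines. The 20 macrophage markers summed to 22.8 in S12 and to 4.07 to 16.6 in the other adapted lines. The 6 defining macrophage markers summed to 3.28 in S12, to 0.962 to 3.79 over all adapted lines and to 3.12 to 35.7 in primary samples. The library of S12 had 0.540 times the depth of S01, the second lowest, and whether depth or a trait of the line goes with these levels was not tested.

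**Figure D4:**
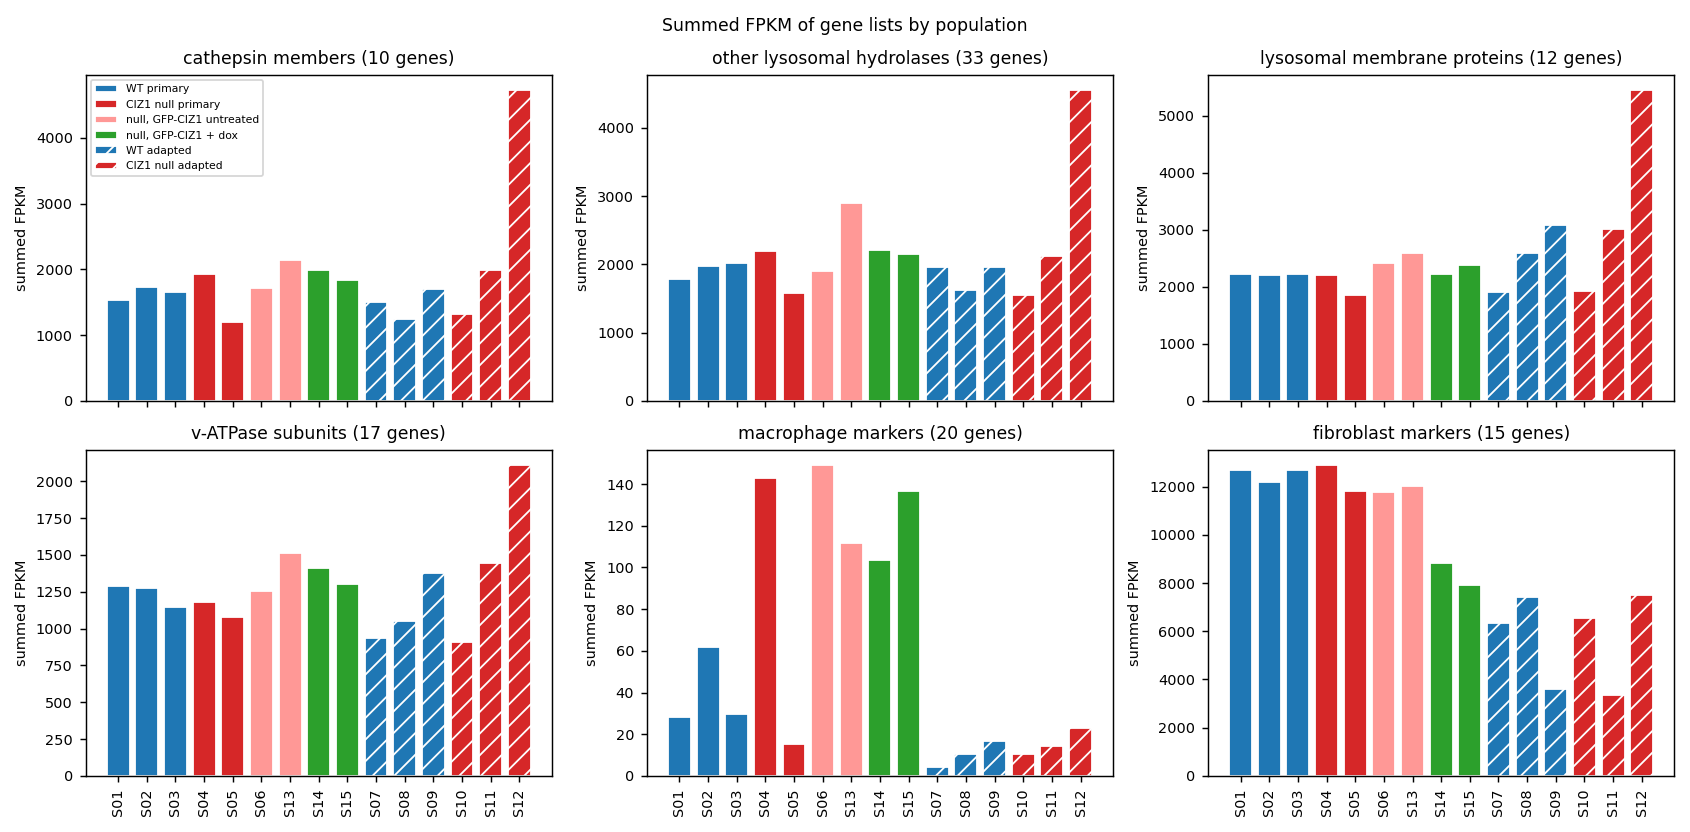
Summed FPKM (vertical axes, from 0) of 6 gene lists in each population (horizontal axes); hatched bars are adapted lines. The 4 lysosomal lists peak in S12 (4726 FPKM for the cathepsins), whereas macrophage markers are highest in S04 and the transgenic primary populations and fibroblast markers in untreated primary populations.

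Without S12 the CIZ1 null adaptation values shifted for the members highest in it. The log2 change of Ctsk went from 0.05 to -0.97 (SE 0.331, limma adjusted p = 0.168), that of Ctsa from 0.18 to -0.38, and that of Ctsl from 1.36 to 0.82 (SE 0.237, limma adjusted p = 0.136). Ctsc and Ctss remained lower in adapted lines, at -2.17 and -2.01. No member was called without S12.

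Outside the family no gene of the pathway lists passed the test in adaptation. In WT and in CIZ1 null adaptation, 0 of 33 hydrolases, 0 of 12 membrane proteins, 0 of 16 v-ATPase subunits, 0 of 7 genes of cathepsin processing and sorting and 0 of 3 inhibitors tested were called by limma. At an unadjusted p under 0.05 there were 4, 3, 2, 3 and 0 of them in WT cells and 2, 3, 1, 1 and 0 in null cells, beside 6091 of 19919 and 5868 of 20044 units in all. The median log2 changes in null adaptation were 0.31 for the hydrolases, 0.68 for the membrane proteins and 0.25 for the v-ATPase, beside -0.04 over all units. In WT cells they were -0.05, 0.17 and -0.03.

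Lysosomal genes are known to share E-boxes bound by TFEB and its relatives, so short windows around such letters are shown from RefSeq (GRCm38.p6), which had promoters for 8 of the 10 members, with Ctsb and Ctsh not among them. The letters CACGTG, which read the same on both strands, were sought in the 250 bases before each RefSeq start and occurred in 6.02% of all 32851 promoters. They were found for 4 of the 8 members, and GTCACGTG, which contains them and was sought on both strands, for Ctsa and Ctsd, beside 1.85% of all promoters. Capitals mark CACGTG with the letters beside it that complete GTCACGTG or TCACGTGA (0.785% of promoters) on either strand.
Ctsa, second of 2 starts, chr2:164833743-164833772, plus strand: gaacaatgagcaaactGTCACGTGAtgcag
Ctsd, 98 bases before the start, chr7:142387908-142387937, minus strand: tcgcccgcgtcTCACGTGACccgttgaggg
Ctsd, 245 bases before the start, chr7:142388048-142388077, minus strand: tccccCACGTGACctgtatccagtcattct
Ctsf, chr19:4855074-4855103, plus strand: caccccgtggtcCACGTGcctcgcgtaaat
Ctsl, chr13:64370739-64370768, minus strand: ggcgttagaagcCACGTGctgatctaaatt
The GENCODE annotation starts some of these genes farther upstream than the RefSeq start used (Ctsl at 64370890, Ctsd at 142388038, Ctsa at 164832873), so the windows of Ctsl and Ctsa and the one 98 bases before the Ctsd start lie inside the gene in that annotation.

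The letters GAGGAAGT, a form of the ETS site that the macrophage factor PU.1 binds, were sought on both strands and occurred in 2.44% of promoters. Among the members they were found before Ctsc, in capitals below on the opposite strand, and not in the window of Ctss.
Ctsc, chr7:88277922-88277951, plus strand: tgtcactaactaACTTCCTCaggccacctc
Members that hold an E-box here (Ctsa, Ctsd, Ctsf and Ctsl) had ratios of S12 to the mean of S10 and S11 on both sides of 1, since Ctsf was at 13.5 FPKM in S12 and at 11.4 and 26.4 in the other lines. A match of letters is a description and not a binding site.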

How the data were processed

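Poly(A)-selected RNA was sequenced with an unstranded kit. The authors trimmed reads with cutadapt 1.8.3, aligned them to GRCm38 with HISAT2 2.0.5, assembled transcripts with Cufflinks and deposited normalised FPKM per transcription unit from Cuffnorm; Cuffdiff 2.2.1 tables of fold changes were not used. The members and gene lists were chosen with earlier results of these data known. Of several units of a symbol the one with the highest mean FPKM stood for the gene. Values were analysed as log2(FPKM + 1) with limma 3.58.1 (trend) in R 4.3.3, over units with a mean of at least 1 FPKM, for 6 comparisons with Benjamini-Hochberg adjustment over all units tested. Correlations used exact permutation in Python 3.11.15 (NumPy 2.4.6). Scripts were tested on simulated data. FPKM hold no counts, so depth is known only relative to S01 and no counting interval is given. The strand of a unit was read from the order of unit numbers, which matched the annotation for 99.98% of 17448 units. Samples of 1 group come from separate embryos, as the study's tables show for S01 to S12. Deviations of primary and adapted samples of 1 embryo correlated at -0.0101 to 0.211 in WT and -0.0210 to 0.111 in null cells, and blocked values are given where a call changed. All 10 members, the 3 genes most like each, and at most 4 called genes of each other list were to be named. Alternatives were the pseudocount, the filter, quantile normalization, all 4 groups in 1 fit, other primary null sets, each replicate left out and, added after seeing the data, units summed. Coordinates are 1-based. No column of values was left without a sample.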

Additional observations from a re-analysis of the deposited data

How the results depend on the processing

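No cathepsin was called under any alternative for CIZ1 loss, the difference between genotypes or doxycycline. Over all 6 comparisons 60 of 799 alternative log2 changes turned sign, which leaves out Ctss where it had no test to compare with. In WT adaptation, where 1 member was called, the replicate block by embryo gave 0, leaving out 1 replicate gave 0 to 3 (3 without S09: Ctsc, Ctsk and Ctss), and summing units, an alternative chosen after seeing the data, gave 2. The 1 member called without S07 was Ctsd (-1.19, limma adjusted p 0.0261), which was not called with all samples. Without a filter on low values Ctsc had a limma adjusted p of 0.0614 and Ctss, untested otherwise, was called in its place (-1.33, adjusted p 0.0415). In CIZ1 null adaptation, where 0 were called, quantile normalization gave 1, all 4 groups in 1 fit 3, all 4 untreated primary null samples 1, summed units 2 and leaving out 1 replicate 0 to 1 (Ctsc without S10); the block changed no call there. Quantile normalization turned log2 changes in WT adaptation to 0.11 for Ctsa, 0.052 for Ctsf, 0.26 for Ctsl and 0.13 for Ctsz, and in null adaptation to 0.20 for Ctsd; it raised the median of all units from -0.05 to 0.06 in WT and from -0.04 to 0.06 in null cells, and the called units from 572 higher and 1330 lower to 982 and 1081 in WT and from 280 and 695 to 351 and 501 in null cells. Without a filter 988 units were called in WT and 322 in null adaptation, and with all 4 groups in 1 fit 2969 in null adaptation. With S04 and S05 alone as primary null samples the null adaptation was 0.020 for Ctsd and -0.026 for Ctsk, and with all 4 untreated ones -0.16 for Ctsk. Leaving out 1 replicate gave ranges in WT adaptation of -0.53 to 0.30 for Ctsf, -0.31 to 0.18 for Ctsl and -0.39 to 0.019 for Ctsz. In null adaptation they were -0.38 to 0.74 for Ctsa, -0.36 to 0.45 for Ctsd, -0.97 to 0.79 for Ctsk and -0.91 to 0.27 for Ctsz. No paired fit was run for doxycycline, since the sources used here do not pair its samples. With doxycycline the ranges were -1.92 to 0.14 for Ctsc and -0.27 to 0.98 for Ctss. Of the 3 members related to Lyz2 in primary samples, 1 (without S05) to 5 (without S15) passed with 1 sample left out and 0 without the 2 farthest from the median of Lyz2. The 1 in adapted lines became 0 with the other macrophage markers, where all 6 lines were used and r fell to 0.453. It also became 0 without any 1 line and without those 2. With 4 or 5 lines few orders limit the p, and r stayed at 0.878 to 0.994. Fewer samples were fitted in these cases, and other causes were not tested. FPKM give no counts, so the depth behind low values such as Ctss in adapted lines is unknown.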
